A study of Homo sapiens with 6 samples.

Results

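The YAP, TEAD and Hippo target genes were followed in HCT116 cells after knock-down of the long non-coding RNA AC010789.1. The 10 genes were taken by name. They were the coactivators YAP1 and WWTR1 (the gene of TAZ), the transcription factors TEAD1, TEAD3 and TEAD4, the kinases LATS1 and LATS2, the scaffold gene AMOTL2 and the secreted matrix proteins CTGF and CYR61. All 10 were found among the 18768 genes with counts. HCT116 is an established human colorectal cancer cell line. One group was transfected with an siRNA that targets AC010789.1 (si-AC010789.1, here the knock-down libraries, after their label) and the other with a negative control siRNA (siRNA-NC, here the controls). The labels name no other treatment. RNA of 3 replicates in each group was sequenced. The study's discussion reports large differences inside the groups of its RNA sequencing. It names different cell generations of the biological repeats as a possible reason. The authors left out genes that differed significantly inside a group, which was not done here. The comparison of both groups asked which mRNAs changed when AC010789.1 was silenced.

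In the Hippo pathway, a chain of kinases ends in LATS1 and LATS2, which phosphorylate YAP and TAZ and so hold them in the cytoplasm or mark them for degradation. Unphosphorylated YAP and TAZ enter the nucleus and bind DNA through TEAD proteins, which recognise the sequence GGAATG. CTGF, CYR61, LATS2 and AMOTL2 are widely used readouts of this binding, and the products of LATS2 and AMOTL2 in turn restrain YAP and TAZ. In the intestinal epithelium the pathway is known for its part in regeneration and in colorectal tumors. Because the kinases act on proteins, mRNA levels do not measure the phosphorylation or the location of YAP and TAZ.

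Several sequences show how these genes are joined in the pathway and which parts of them the counts could not separate. The CTGF promoter is the textbook example of TEAD binding. The 249 bases before the first annotated CTGF exon (chr6:131951374-131951622, minus strand, RefSeq, GRCh38.p14, outside the exons of the gene) held the motif 3 times, marked here in capitals.
CTGF upstream: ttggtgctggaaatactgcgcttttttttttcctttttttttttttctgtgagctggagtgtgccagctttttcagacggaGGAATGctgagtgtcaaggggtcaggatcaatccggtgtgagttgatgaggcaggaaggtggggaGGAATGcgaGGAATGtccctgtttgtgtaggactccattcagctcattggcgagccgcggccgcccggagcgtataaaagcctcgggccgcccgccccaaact
The motif began 169, 104 and 95 bases before the RefSeq start, which lies just inside that exon and not at the end of the printed stretch. YAP1 itself held it once, 162 bases before its RefSeq start, in the stretch chr11:102110258-102110317 (plus strand, upstream of the first exon), again in capitals.
YAP1 upstream: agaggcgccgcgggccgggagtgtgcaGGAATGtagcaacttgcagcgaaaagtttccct
The search was for GGAATG on either strand (CATTCC on the other), from 250 bases before to 50 bases after each start. RefSeq promoters were matched for 7 of the 10 genes, with 10 promoters in all, and 4 of these held the motif. The other 2 were LATS2, with the motif 9 bases after the start, and the second of 2 AMOTL2 promoters, with it 69 bases before. TEAD1, TEAD4 and CYR61 were not matched. Of all 35116 RefSeq promoters 14% held at least 1 motif, and 45 promoters (0.128%) held at least 3, as CTGF did. The match of letters is a description and no measure of binding in these cells.

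The YAP1 transcripts YAP1-202 and YAP1-209 differ by 2 short exons, which are shown because these transcripts together held most YAP1 counts and their shares changed between libraries. Exon 4 of YAP1-210 (chr11:102186018-102186131, plus strand, GRCh38, 114 bases, coding) encodes the second WW domain, with which YAP binds proline-rich partners. Exon 6 (chr11:102209517-102209564, plus strand, 48 bases, coding) lies in the part that encodes the transactivation domain.
YAP1 exon 4: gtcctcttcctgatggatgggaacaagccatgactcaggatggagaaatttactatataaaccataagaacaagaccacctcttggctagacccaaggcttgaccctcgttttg
YAP1 exon 6: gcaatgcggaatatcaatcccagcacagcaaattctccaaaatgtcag
YAP1-202 holds exon 6 and lacks exon 4, YAP1-209 holds exon 4 and lacks exon 6, and YAP1-210 holds both. YAP1-201, named after its values were seen, also holds both and has a shorter exon 5 (182 against 194 bases).

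The study placed AC010789.1 upstream of miR-432-3p, so the 3′ UTRs of the 10 genes were searched for the 7-base matches of this miRNA, CCATCCA (to bases 2 to 8, its seed) and CATCCAA (to bases 2 to 7, followed by A). The mature miRNA (chr14:100884544-100884564, plus strand, RefSeq) is printed with its seed in capitals, and the TEAD1 site with the 7 matching bases in capitals.
hsa-miR-432-3p: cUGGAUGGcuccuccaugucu
TEAD1 site: aacttagttctaccaCATCCAAttaactta
This site (chr11:12938931-12938960, plus strand, GRCh38) lies in exon 8 of TEAD1-203, within the 3′ UTR. TEAD1 was the one gene of the 10 with a match in the 3′ UTR of its main transcript. In TEAD3 and LATS1 the matches lay in a transcript marked for nonsense-mediated decay, TEAD3-202 and LATS1-203. YAP1, WWTR1, TEAD4, LATS2, AMOTL2, CTGF and CYR61 had no match, including the WWTR1 3′ UTR of 3570 bases. Of 19469 genes with an annotated 3′ UTR, 21.6% had a match.

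The deposited table holds unnormalized read counts for Ensembl transcripts. Their sum was between 11277222 and 13443866 per library, and 3 counts were between 0.223 and 0.266 per 1000000 of that sum. Levels are given as CPM (counts per 1000000, with library sizes scaled by the TMM factors). Counts were summed per gene, and 13764 genes that passed a filter on low counts went into the quasi-likelihood test of edgeR. All 10 genes passed the filter. The level of AC010789.1 was not analysed here, so the knock-down was not checked in these libraries. The paper itself reports that knock-down was verified for its RNA-seq samples. Of 6 epithelial markers, KRT8 (444 to 850 CPM) and KRT18 (351 to 535 CPM) were high, EPCAM was at 3.10 to 5.59 CPM and LGALS4 at 0 to 0.225 CPM, and KRT19 and CDX2 were not analysed here. CDH1 was at 0.675 to 1.05 CPM. The defining markers EPCAM and CDH1 were thus low for a line of epithelial origin, and the identity of the line was not tested. Summed markers of fibroblasts (3 of 5 found) were at 43.2 to 51.6 CPM in the controls and 44.8 to 52.1 CPM after knock-down, nearly all of it COL1A1. Those of leukocytes (2 of 5 found) were at 6.08 to 9.05 and 2.59 to 5.35 CPM, and those of endothelium (2 of 3 found) at 1.73 to 2.48 and 0.873 to 2.51 CPM. Their part in the results below was not tested.

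Of the 10 genes, WWTR1 was lower after knock-down with an adjusted p under 0.05, and none was higher by that test. Over all 13764 genes this test called 0.944%, with 0.269% higher and 0.676% lower. Unadjusted p-values under 0.05 were found for 5 of the 10 genes (17.2% over all genes), and DESeq2 called 3 of them (3.77% over all genes). In 6 of the 10 the 3 values of one group did not overlap those of the other, with 5 higher and 1 lower in si-AC010789.1. Over all genes this held for 25.1%, with 12.2% higher and 12.9% lower. The 10 genes were chosen with earlier results of these data known. A difference from the shares over all genes is thus a description and no test of the 10 genes as a set. The median log2 fold change (si-AC010789.1 against siRNA-NC) was 0.088 for the 10 genes and -0.00059 for all genes tested. With 3 libraries against 3, the exact two-sided permutation test of a single gene cannot go below p = 0.1, which was its value for each of the 6 genes whose groups did not overlap.

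**Figure D1:**
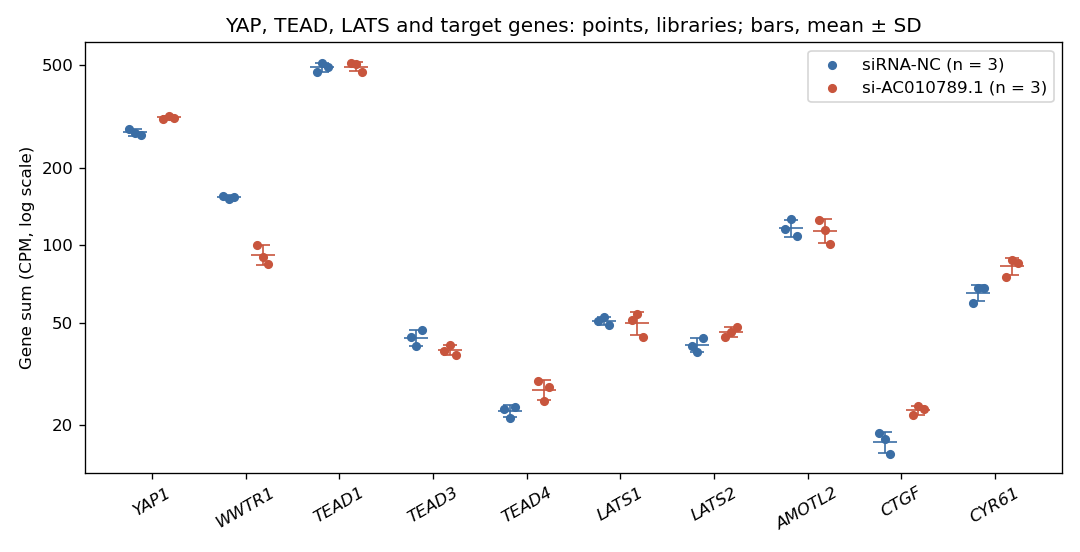
Level of each of the 10 genes in CPM (log axis) in the 3 siRNA-NC and the 3 si-AC010789.1 libraries, with 1 point per library and bars for the group mean and SD. WWTR1 is the one gene whose si-AC010789.1 points all lie below siRNA-NC (84.3 to 101 against 151 to 156 CPM), while YAP1, TEAD4, LATS2, CTGF and CYR61 have theirs above.

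WWTR1 (ENSG00000018408.14, chr3:149517235-149736714, minus strand) encodes TAZ, one of the pair of coactivators that the Hippo kinases restrain. Its level was 156, 151 and 154 CPM in siRNA-NC replicates 1, 2 and 3 and 101, 90.2 and 84.3 CPM in si-AC010789.1 replicates 1, 2 and 3. The control libraries lay close together, and the groups were well apart. The mean fell from 154 ± 2.18 CPM to 91.7 ± 8.22 CPM (SD, n = 3 per group). This was a log2 fold change of -0.75 ± 0.072 (SE), or a level that fell by 40.4% (edgeR, adjusted p = 0.0157). The size of the change was similar when any library was left out (-0.82 to -0.69), but the call was not. The adjusted p was 0.0229 without si-AC010789.1 replicate 1. It was 0.0692, 0.0653 and 0.0669 without siRNA-NC replicate 1, 2 and 3, and 0.0767 and 0.0636 without si-AC010789.1 replicate 2 and 3. With DESeq2 it was 3.8e-12, and with the replicate number added to the edgeR fit as a block it was 0.113. In bulk RNA, fewer cells that express WWTR1 and less WWTR1 mRNA per cell cannot be told apart.

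YAP1 (ENSG00000137693.13, chr11:102110461-102233423, plus strand) encodes the other coactivator and differed in the opposite direction. It was at 282, 273 and 267 CPM in the controls and at 309, 318 and 312 CPM after knock-down. All 3 knock-down libraries lay above all 3 controls, by a small margin. The log2 fold change was 0.19 ± 0.040 (SE), which did not pass the threshold with edgeR (adjusted p = 0.0915) and passed it with DESeq2 (adjusted p = 0.0293).

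To compare the levels of both genes, the counts of each transcript were divided by its length and scaled to the same total in every library (TPM, transcripts per 1000000). YAP1 was at 144, 135 and 130 TPM in the controls and at 153, 159 and 156 TPM after knock-down, and WWTR1 at 69.9, 68.9 and 68.4 TPM and at 45.3, 42.9 and 35.9 TPM. YAP1 mRNA was the more abundant of the pair in every library. WWTR1 made up 32.7%, 33.8% and 34.4% of their summed TPM in the controls and 22.8%, 21.2% and 18.7% after knock-down. Its share was thus lower in each knock-down library than in any control, with means of 33.6% ± 0.868 and 20.9% ± 2.06 (SD, n = 3, exact permutation p = 0.1, the smallest possible). The summed TPM was 206 ± 7.54 in the controls and 198 ± 5.54 after knock-down (SD, n = 3), and here the groups overlapped (exact permutation p = 0.2).

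**Figure D2:**
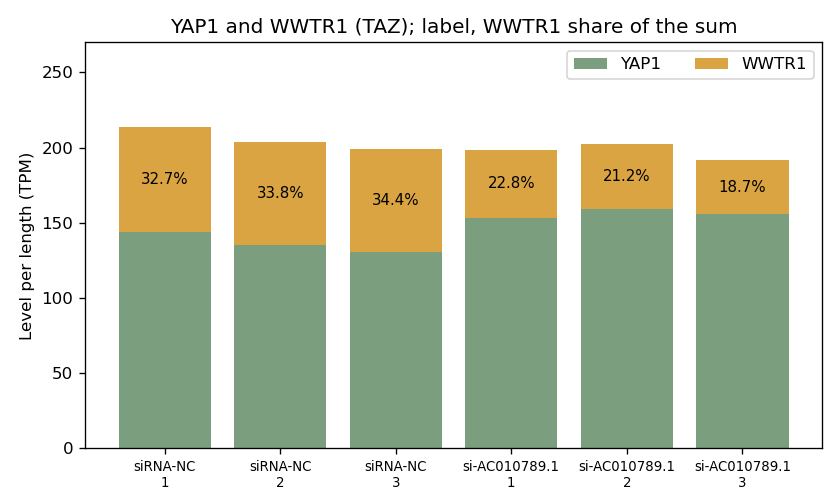
YAP1 (lower segment) and WWTR1 (upper segment) levels in TPM, stacked, with 1 bar per library and the WWTR1 percent of the sum written in its segment. The WWTR1 share lies between 32.7% and 34.4% in siRNA-NC and between 18.7% and 22.8% in si-AC010789.1, while YAP1 is the higher of the pair in all 6 libraries.

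The TEAD genes encode the DNA-binding partners of YAP and TAZ. TEAD1 (ENSG00000187079.16, chr11:12674591-12944483, plus strand), which carries the seed match printed above, was at 468, 510 and 491 CPM in the controls and at 508, 503 and 470 CPM after knock-down. The values of both groups ran through each other. Its log2 fold change was 0.010 ± 0.052 (SE; edgeR, adjusted p = 0.943). TEAD3 (ENSG00000007866.20, chr6:35473597-35497076, minus strand) was at 44.2, 40.5 and 46.7 CPM in the controls and at 39.0, 41.1 and 37.6 CPM after knock-down. The highest knock-down library was above the lowest control, and the log2 fold change of -0.16 ± 0.082 (SE) did not pass the test (edgeR, adjusted p = 0.380). TEAD4 (ENSG00000197905.8, chr12:2959330-3040673, plus strand) was at 23.1, 21.4 and 23.6 CPM in the controls and at 29.6, 24.8 and 28.3 CPM after knock-down. Its groups did not overlap, with the knock-down libraries higher, and the log2 fold change was 0.28 ± 0.097 (SE; edgeR, adjusted p = 0.227). Of the summed TPM of TEAD1, TEAD2, TEAD3 and TEAD4, TEAD1 made up 67.3% ± 2.75 in the controls and 64.9% ± 3.34 after knock-down (SD, n = 3, exact permutation p = 0.4). TEAD1 was thus the main TEAD mRNA of these cells in both groups.

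LATS1 and LATS2 encode the kinases that phosphorylate YAP and TAZ. LATS1 (ENSG00000131023.12, chr6:149658153-149718256, minus strand) was at 50.6, 52.9 and 49.0 CPM in the controls and at 51.4, 53.9 and 44.0 CPM after knock-down, where replicate 2 was the highest of all 6 libraries and replicate 3 the lowest. Its log2 fold change was -0.030 ± 0.092 (SE; edgeR, adjusted p = 0.904). LATS2 (ENSG00000150457.8, chr13:20973032-21061547, minus strand), itself a target gene of YAP and TAZ, was at 40.7, 38.7 and 43.8 CPM in the controls and at 43.9, 46.3 and 48.0 CPM after knock-down. The groups did not overlap, but the highest control and the lowest knock-down library were almost equal. The log2 fold change was 0.17 ± 0.078 (SE; edgeR, adjusted p = 0.340). Per length, both kinases were at like levels. LATS1 made up 52.6% ± 0.445 of their summed TPM in the controls and 49.5% ± 5.20 after knock-down (SD, n = 3, exact permutation p = 0.5).

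AMOTL2 (ENSG00000114019.14, chr3:134355874-134375479, minus strand) encodes an angiomotin-like scaffold protein that holds YAP at cell junctions. Its level was 115, 126 and 108 CPM in the controls and 125, 115 and 101 CPM after knock-down. The groups overlapped widely, and the log2 fold change was -0.033 ± 0.095 (SE; edgeR, adjusted p = 0.897).

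CTGF and CYR61 encode secreted matrix proteins of the CCN family and are the usual target genes by which YAP and TAZ activity is read. CTGF (ENSG00000118523.5, chr6:131948176-131951373, minus strand) was at 18.6, 17.6 and 15.5 CPM in the controls and at 21.9, 23.7 and 23.2 CPM after knock-down. Every knock-down library was above every control, at means of 17.3 ± 1.58 and 22.9 ± 0.922 CPM (SD, n = 3). Its log2 fold change of 0.41 ± 0.097 (SE) was the highest of the 10 genes, and it did not pass the threshold with edgeR (adjusted p = 0.114) or with DESeq2 (adjusted p = 0.0754). CYR61 (ENSG00000142871.16, chr1:85580761-85583962, plus strand) was at 59.9, 68.3 and 68.3 CPM in the controls and at 75.5, 87.7 and 85.1 CPM after knock-down. These groups did not overlap either, with means of 65.5 ± 4.86 and 82.8 ± 6.45 CPM (SD, n = 3). The log2 fold change was 0.34 ± 0.087 (SE), with an adjusted p of 0.133 from edgeR and 0.0477 from DESeq2. Both readout genes lay in the opposite direction to WWTR1. LATS2 lay in that direction too, but its groups were almost equal at their edge and overlapped in its main transcript. AMOTL2 showed no separation of the groups in the gene sum. CTGF, CYR61 and LATS2 did not pass the threshold with edgeR. Of 17 further target genes tested, described below, 7 were higher and 10 lower.

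Levels per length put TEAD1 first (164 to 214 TPM over the 6 libraries) and YAP1 next (130 to 159 TPM), with no overlap between their ranges. CYR61 (51.7 to 75.6 TPM), AMOTL2 (55.8 to 71.5 TPM) and WWTR1 (35.9 to 69.9 TPM) followed, and their ranges overlapped. TEAD4 (28.1 to 40.9 TPM) overlapped with WWTR1 above it and with TEAD3 (25.4 to 31.0 TPM) below it. CTGF (12.7 to 19.7 TPM), LATS1 (14.4 to 19.9 TPM) and LATS2 (13.6 to 18.6 TPM) were the lowest, all below TEAD3 and not separated from each other. The main readout gene CTGF was thus expressed at the level of the kinases, well under CYR61.

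The counts of single transcripts showed what lies under the gene sums. The annotation lists 66 transcripts of the 10 genes, of which 56 had counts, 38 passed the filter and 0 had an adjusted p under 0.05 with edgeR, against 0.0135% of the 44297 transcripts tested (0.00903% higher and 0.00451% lower). Unadjusted p-values under 0.05 were found for 4 of them (5.74% over all transcripts), and DESeq2 called 2 (1.53% over all transcripts). The groups did not overlap in 10 of them, 5 higher (6.88% over all transcripts) and 5 lower (7.10%). Between the lowest and the highest library 26 of the 38 differed by over 2-fold in CPM, while the gene sums differed by 1.09-fold (TEAD1) to 1.85-fold (WWTR1). On simulated counts the edgeR test of transcripts called 0 of 66 planted log2 fold changes of 1, 0 of 66 of 2 and 3 of 66 of 4. The lack of calls by this test therefore does not show that the transcripts were unchanged.

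WWTR1-203 (ENST00000465804) carried 91.2% to 97.8% of the WWTR1 counts. It had 1635, 1842 and 1878 counts in the controls and 1066, 1041 and 1018 after knock-down. Each knock-down library was far below each control, as for the gene sum. The log2 fold change was -0.73 ± 0.087 (SE), with an adjusted p of 0.158 over all transcripts from edgeR and 7.6e-08 from DESeq2. WWTR1-201, with 100, 143 and 161 counts in the controls and 69, 60 and 9 after knock-down, lay in the same direction (log2 fold change -1.47 ± 0.75, SE; edgeR, adjusted p = 0.913).

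YAP1 counts moved between transcripts within a group. YAP1-202, which lacks exon 4, had 2227, 32 and 2605 counts in the controls and 574, 2942 and 2823 after knock-down. YAP1-209, which lacks exon 6 and is named here after its values were seen, had 66, 2805 and 75 counts in the controls and 1767, 56 and 322 after knock-down. Where one was high the other was low, so siRNA-NC replicate 2 and si-AC010789.1 replicate 1 stood apart from their groups. Their sum was 2293, 2837 and 2680 counts in the controls and 2341, 2998 and 3145 after knock-down, and in CPM it varied by 1.26-fold. YAP1-210, which holds both exons, had 50, 19 and 38 counts in the controls and 301, 60 and 40 after knock-down (log2 fold change 1.97 ± 0.95, SE; edgeR, adjusted p = 0.913). The groups overlapped, with si-AC010789.1 replicate 1 alone far above the others. How reads shared by these transcripts were divided is not given in the sources used here, so no statement on the use of the printed exons was drawn from these counts.

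In AMOTL2, TEAD3 and LATS1 the groups overlapped in the gene sum and did not overlap in the main transcript, which was lower after knock-down. As for YAP1, the division of shared reads between transcripts is not given. A fall of the main transcript and a different division of reads could thus not be told apart. AMOTL2-202 (ENST00000422605) had 845, 981 and 835 counts in the controls and 518, 442 and 455 after knock-down. Its log2 fold change was -0.86 ± 0.15 (SE), with an adjusted p of 0.334 from edgeR and 0.0017 from DESeq2. AMOTL2-201, named after its values were seen, had 53, 39 and 265 counts in the controls and 198, 277 and 389 after knock-down, and the retained-intron transcript AMOTL2-207, named likewise, had 382, 627 and 276 and 693, 419 and 224. AMOTL2-211 had 0, 0 and 46 counts in the controls and 0, 59 and 152 after knock-down. In each of these 3 the groups overlapped. AMOTL2-212, named after its values were seen, had 216 counts in si-AC010789.1 replicate 2 and 0 in every other library. The summed counts of AMOTL2-201 and AMOTL2-202 were 898, 1020 and 1100 in the controls and 716, 719 and 844 after knock-down. In this sum the groups did not overlap, and the knock-down libraries were lower.

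In TEAD3, the main transcript TEAD3-201 had 454, 490 and 438 counts in the controls and 299, 327 and 316 after knock-down (log2 fold change -0.51 ± 0.14, SE; edgeR, adjusted p = 0.696). All 3 knock-down libraries lay below the controls. The decay transcript TEAD3-202, which holds the seed match of TEAD3, had 1, 6 and 177 counts in the controls and 107, 154 and 139 after knock-down, so siRNA-NC replicate 3 stood apart from its group. The summed counts of TEAD3-201 and TEAD3-202 were 455, 496 and 615 in the controls and 406, 481 and 455 after knock-down, with groups that overlapped. LATS1-207 had 475, 653 and 529 counts in the controls and 447, 416 and 443 after knock-down and was lower in every knock-down library (log2 fold change -0.29 ± 0.15, SE; edgeR, adjusted p = 0.913). LATS1-203, named after its values were seen, had 0, 14 and 0 counts in the controls and 0, 193 and 1 after knock-down. The summed counts of LATS1-203 and LATS1-207 were 475, 667 and 529 in the controls and 447, 609 and 444 after knock-down. In this sum the groups overlapped. LATS1-201 had 57, 9 and 49 counts in the controls and 107, 29 and 55 after knock-down, and TEAD4-201 had 21, 87 and 220 and 230, 116 and 248. In both of these the groups overlapped.

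TEAD1-203, which holds the printed seed match, had 4608, 5732 and 5607 counts in the controls and 5046, 5324 and 5191 after knock-down. Its groups overlapped, with a log2 fold change of 0.016 ± 0.052 (SE; edgeR, adjusted p = 0.996). TEAD1-202, with 30 to 49 counts in the controls and 45 to 67 after knock-down, had the largest log2 fold change of the TEAD1 transcripts (0.45 ± 0.30, SE; edgeR, adjusted p = 0.946). CTGF-201, the single CTGF transcript, had 210, 234 and 207 counts in the controls and 251, 297 and 286 after knock-down. CYR61-201 carried nearly all CYR61 counts and was higher in each knock-down library, while CYR61-202 had 4 to 16 counts per library. LATS2-201 had 459, 513 and 584 counts in the controls and 502, 575 and 587 after knock-down, with groups that overlapped.

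**Figure D3:**
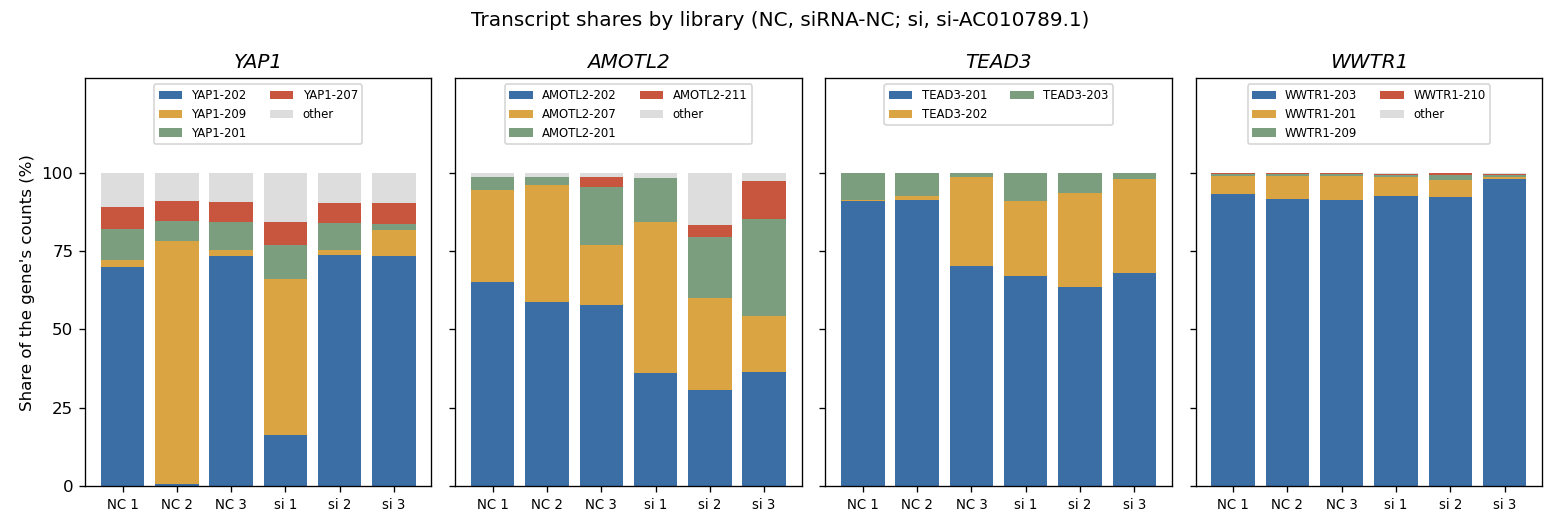
Percent of the counts of YAP1, AMOTL2, TEAD3 and WWTR1 carried by their transcripts, as 1 stacked bar per library, with at most 4 transcripts of a gene, those with most counts, in color and the rest in gray. WWTR1 is nearly all WWTR1-203 in every library, whereas the YAP1 bars are mostly YAP1-202 in 4 libraries, and YAP1-209 has the largest share in siRNA-NC replicate 2 and si-AC010789.1 replicate 1.

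The exons of CTGF, LATS1, WWTR1 and YAP1 overlap antisense genes (AL133346.1, AL358852.1, WWTR1-AS1 and AP000942.2) that had no counts of their own here. Whether the counting used strand is not given in the sources used here, so reads of these antisense genes could not be told apart from those of the 4 genes.

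The rest of the pathway was described by 3 lists. Of 30 upstream regulators, such as the MST, MAP4K and TAO kinases with their adaptors and the FERM and FAT proteins, 27 were tested. Of these 15 were higher and 12 lower after knock-down. With edgeR 0 passed the threshold (0.944% over all genes), and with DESeq2 also 0 (3.77% over all genes). At such shares a list of this length can hold 0 calls without differing from all genes. An unadjusted p under 0.05 was found for 5 (17.2% over all genes). The groups did not overlap in 7 (2 higher, 5 lower, against 25.1% over all genes in either direction). These last shares were near those over all genes. MOB1A, the LATS adaptor with the highest level of the list, was at 283 ± 11.7 CPM in the controls and 290.0 ± 13.3 CPM after knock-down (SD, n = 3). FRMD6, a FERM protein, had the highest log2 fold change of the list (0.29 ± 0.12, SE; edgeR, adjusted p = 0.279) and TAOK3, a TAO kinase that acts above the MST kinases, the lowest (-0.36 ± 0.098, SE; edgeR, adjusted p = 0.152). The median over the list was 0.0086.

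Of 21 partners of YAP, TAZ and TEAD (TEAD2, the VGLL cofactors, the AJUBA family, junction and polarity proteins, the ligase and kinase genes of YAP turnover and the SRC family), VGLL1, VGLL2 and AMOT were not analysed here and the other 18 were tested. Of these 13 were higher and 5 lower. With edgeR 0 passed the threshold (0.944% over all genes), and with DESeq2 also 0 (3.77% over all genes), as a list of this length can without differing from all genes. An unadjusted p under 0.05 was found for 5 (17.2% over all genes). The groups did not overlap in 4 (3 higher, 1 lower, against 25.1% over all genes). YES1, the SRC family kinase after which YAP (Yes-associated protein) was named, had the highest level, at 216 ± 24.6 CPM in the controls and 249 ± 7.60 CPM after knock-down (SD, n = 3). WTIP, an AJUBA family protein that binds LATS kinases, was at 1.95, 1.58 and 3.30 CPM in the controls and 5.15, 5.75 and 4.45 CPM after knock-down. All knock-down libraries were above all controls, and its log2 fold change of 1.16 ± 0.29 (SE) did not pass the test (edgeR, adjusted p = 0.130). AMOTL1, the relative of AMOTL2, had the lowest log2 fold change (-0.31 ± 0.13, SE; edgeR, adjusted p = 0.291). The median over this list was 0.089.

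Of 18 further target genes of YAP and TAZ, 17 were tested, and ANKRD1, a frequently used readout, was below the filter. Of the 17, 7 were higher and 10 lower. With edgeR 0 passed the threshold (0.944% over all genes), and with DESeq2 also 0 (3.77% over all genes), as a list of this length can without differing from all genes. An unadjusted p under 0.05 was found for 3 (17.2% over all genes). The groups did not overlap in 4 (2 higher, 2 lower, against 25.1% over all genes). These last shares were near those over all genes. MYOF, which encodes the membrane repair protein myoferlin, had the highest level, at 798 ± 12.5 CPM in the controls and 816 ± 4.18 CPM after knock-down (SD, n = 3). AXL, a receptor tyrosine kinase, was at 118 ± 10.9 and 149 ± 14.4 CPM (SD, n = 3) and had the highest log2 fold change of the list (0.34 ± 0.097, SE; edgeR, adjusted p = 0.163). NT5E, the ectonucleotidase CD73, was at 93.0 ± 10.7 and 74.8 ± 2.17 CPM (SD, n = 3) and had the lowest (-0.32 ± 0.090, SE; edgeR, adjusted p = 0.162). The median over the list was -0.072, and it ranged from -0.11 (without si-AC010789.1 replicate 2) to -0.0087 (without si-AC010789.1 replicate 3) when a library was left out.

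**Figure D4:**
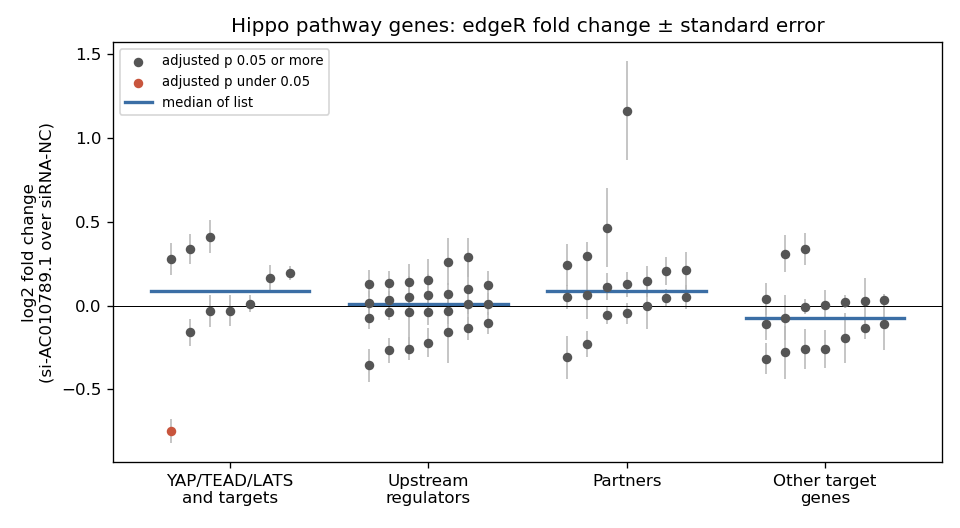
Log2 fold change (si-AC010789.1 against siRNA-NC) of each tested gene in the 4 lists, with 1 point per gene, a bar for its SE and a line at each median. The medians are 0.088 for the 10 genes, 0.0086 for the regulators, 0.089 for the partners and -0.072 for the further target genes, and WWTR1 at -0.75 is the one gene with an adjusted p under 0.05.

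The genes nearest to each readout gene were sought by the root mean square difference of log2 CPM, each gene centred on its own mean over the 6 libraries. Nearest to CTGF were WDR41 (0.031), ZFAND3 (0.035) and GINS2 (0.042), and nearest to CYR61 were EMC6 (0.016), PKIG (0.029) and MFSD12 (0.031). Among the 13764 genes tested, CYR61 was 561st in nearness to CTGF and CTGF was 1138th in nearness to CYR61, at a difference of 0.14. With 6 libraries in 2 groups, nearness of this kind was shared by many genes.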

How the data were processed

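The 6 RNA-seq libraries of HCT116 cells were put into the groups si-AC010789.1 and siRNA-NC, 3 each, by the sample labels. The labels call the second group control cells, and the name siRNA-NC is the paper's. The authors deposited counts, as whole numbers per Ensembl transcript without normalization, from paired-end TruSeq libraries. The submitters' processing notes name CASAVA 1.8, TopHat2 2.0.6 and the builds mm10 and GRCh38. The paper names Cuffdiff. The counting program, the annotation and the use of strand are not given in the sources used here. Of 98886 transcripts 98803 were matched to GENCODE v29 (GRCh38), whose version may differ from the authors', and they held 99.907% to 99.941% of the counts of a library. Counts were summed per gene and tested with edgeR 4.0.16 in R 4.3.3 (TMM, filterByExpr at a count of 10 and a total of 15, quasi-likelihood test), with Benjamini-Hochberg adjustment over all genes or all transcripts and a threshold of 0.05. The fit held only the group. Permutation tests were exact and two-sided. The alternatives were DESeq2 1.42.0, RLE factors, no filter, a mean of at least 1 CPM, the replicate number as a block, and each library left out. The scripts were tested on simulated data. There the gene test called 55.2% of planted log2 fold changes of 0.75, 77.6% of 1 and 95.5% of 2. The genes and lists were chosen with earlier results of these data known. The text names all 10 genes, and of each list the gene with the highest level, the largest rise and the largest fall. Of transcripts it names, for each gene, the one with most counts and the one with the largest log2 fold change. The 3 nearest genes to CTGF and CYR61 are also named. The floor of 3 counts covers counting error only. The paper calls the replicates biological repeats, but the labels do not say whether they were separate cultures. The p-values thus measure the spread between these libraries.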

Additional observations from a re-analysis of the deposited data

How the results depend on the processing

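Of the 10 genes 1 was called by the main test (WWTR1), 3 by DESeq2 (WWTR1, YAP1 and CYR61, of which 2 higher) and 0 with the replicate number as a block, where WWTR1 kept its log2 fold change (-0.75) at an adjusted p of 0.113. Between 0 and 1 was called when a library was left out, all of it in the lower direction, and 0 higher. Over all genes 130 were called by the main test, 519 by DESeq2, 69 without the filter, 0 with the block and 12 to 37 without a library. Over all transcripts the counts were 6, 676, 0, 0 and 0 to 6, and of the transcripts of the 10 genes DESeq2 called 2 (WWTR1-203 and AMOTL2-202). The deviations of same-numbered libraries correlated at 0.112, 0.0108 and 0.0167. The value for replicate 1 was the highest of all pairs, but not every library correlated best with its own number. With 3 libraries per group this check cannot decide whether the replicate numbers pair the libraries. The block called no gene of the other 3 lists. The median of the further target genes ranged from -0.11 to -0.0087 without a library. Signs changed when a library was left out for TEAD1 (-0.019 to 0.043), LATS1 (-0.089 to 0.050), AMOTL2 (-0.11 to 0.042), TEAD1-203 (-0.012 to 0.043) and YAP1-202 (-0.20 to 0.81). The cause was not tested. A further 277 values of single genes or transcripts kept their direction and their side of the threshold. Of the counts and medians 80 stayed near the main value and 19 moved. Many of the kept values were uncalled genes or counts of 0. Fits that called few or no genes could hardly change these, so their number is no measure of stability.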
